A study of Arabidopsis thaliana with 18 samples.

Results

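The genes described here are 106 of the 32548 genes in an expression table of Arabidopsis thaliana seedlings, chosen by their levels at 22 °C. They were higher in sant-null than in Col-0, with a smaller change or none in hda6. Levels are FPKM, fragments per kilobase of gene and per mega-fragment sequenced, and each is the authors' mean of a group. A gene was taken when its FPKM in sant-null at 22 °C was at least 1, its ratio of sant-null to Col-0 was at least 2, its ratio of hda6 to Col-0 was under 1.5, and its FPKM in Col-0 was under 5, with 0.1 added to each value for the ratios. The measured values at 22 °C thus selected the genes and are given below as a description. Calls of the deposited tables that involve these values are counted without reading anything from them. Tests of the mutants rest on the libraries at 37 °C, which had no part in the choice.

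Whole seedlings 7 days old were compared in 6 groups of 3 libraries, namely sant-null quadruple mutants (SANT1/2/3/4), an hda6 EMS line and wild-type Col-0, each exposed to 37 °C for 1 h or kept at 22 °C. Every group had the same day length, with lamps on for 16 h and off for 8 h. The stated aim was to learn what regulation through SANT1/2/3/4 contributes in heat. The labels and notes name neither the mutant alleles nor the number of plants in a library. They do not state either that libraries of a group came from separate sowings, so the p-values cover the spread between libraries, which may be technical. HDA6 messenger RNA at 22 °C had FPKM of 6.94 in sant-null, 7.59 in hda6 and 6.83 in Col-0, so the level of this transcript is no check of the mutant, and the 4 SANT genes were not analysed by name. Library totals recovered from the value of a single read lay between 38.1 and 53.6 mega-reads. In whole seedlings, fewer cells of a type and less RNA per cell cannot be told apart.

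SANT domains are protein modules found in many chromatin complexes, where they contact histone tails and the enzymes that modify them. HDA6 is a histone deacetylase: it removes acetyl groups from histone tails, a change that goes with lower transcription, and is known for the silencing of transposons and repeats.

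The 4 members with the largest called rise at 37 °C are shown by the 250 bases before their annotated start, from the RefSeq annotation of TAIR10.1, because each was low in Col-0 and higher in sant-null at both temperatures. Capitals mark the letters GAANNTTC, a core of the heat shock element that heat shock factors bind. RR18 (AT5G58080; window chr5:23504170-23504419, minus strand) encodes a type-B response regulator, a transcription factor of cytokinin signalling. AT2G23970 (chr2:10199425-10199674, plus strand) encodes a class I glutamine amidotransferase-like protein, AT1G65240 (chr1:24233524-24233773, minus strand) an aspartyl protease family protein and AT4G04415 (chr4:2193910-2194159, plus strand) an uncharacterized protein. RR18 was the one with these letters in its window, and the other 3 windows held none of the 4 motifs searched. Other letter orders of the heat shock element were not searched, so a window without these letters may still hold such an element.
RR18: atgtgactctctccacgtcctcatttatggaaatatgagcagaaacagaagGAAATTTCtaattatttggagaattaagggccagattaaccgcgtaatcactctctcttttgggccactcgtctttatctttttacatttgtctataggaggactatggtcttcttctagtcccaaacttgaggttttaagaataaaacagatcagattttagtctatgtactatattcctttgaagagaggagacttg
AT2G23970: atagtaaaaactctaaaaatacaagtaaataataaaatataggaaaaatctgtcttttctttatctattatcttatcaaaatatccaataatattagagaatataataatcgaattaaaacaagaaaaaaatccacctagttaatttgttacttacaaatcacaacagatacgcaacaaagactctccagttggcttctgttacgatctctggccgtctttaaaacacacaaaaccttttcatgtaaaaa
AT1G65240: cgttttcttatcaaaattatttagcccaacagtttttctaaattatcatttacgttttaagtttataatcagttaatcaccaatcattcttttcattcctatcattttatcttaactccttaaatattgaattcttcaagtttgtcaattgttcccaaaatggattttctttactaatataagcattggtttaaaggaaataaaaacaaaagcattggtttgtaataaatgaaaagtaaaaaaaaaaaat
AT4G04415: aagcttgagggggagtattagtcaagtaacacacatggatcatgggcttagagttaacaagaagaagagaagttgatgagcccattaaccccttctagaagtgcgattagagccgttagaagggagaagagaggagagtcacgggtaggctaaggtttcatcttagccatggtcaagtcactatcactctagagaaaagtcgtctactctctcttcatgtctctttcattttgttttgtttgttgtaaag

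At 22 °C the members were genes of low level. Their FPKM had a median of 1.91 in sant-null (range 1.01 to 10.04), 0.910 in hda6 (range 0 to 6.49) and 0.732 in Col-0 (range 0.0283 to 4.89). Most members lay close to the 2-fold limit. The ratio of sant-null to Col-0 had a median of 2.26, it was under 2.5 in 73 members and it reached 3 in 15. The ratio of hda6 to Col-0 had a median of 1.27, and it was 1 or more in 86 members. Over the 14149 genes whose Col-0 level at 22 °C fell within the range of the members, the median ratios were 1.12 for sant-null and 1.05 for hda6.

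A few members stood far from the limit. The seed storage gene CRA1 had the highest ratio, 13.02, followed by RR18 at 10.14. The next were RPB5E at 5.48, AT4G33720 at 5.197, AT1G65240 at 4.76, AT2G23970 at 4.67, the long noncoding RNA gene AT1G04313 at 4.599, the late embryogenesis abundant gene AT3G15670 at 4.34, AT4G04415 at 4.28 and AT4G13577 at 3.78. These genes with high ratios were not those with high levels. The highest FPKM in sant-null at 22 °C belonged to GSTF14, AT1G29720, AT2G21830, AT3G57160, GDPD6, AT4G12917, AT2G29170, AT5G66740, AT4G16770 and AT1G62290, with levels between 5.35 and 10.04.

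**Figure D1:**
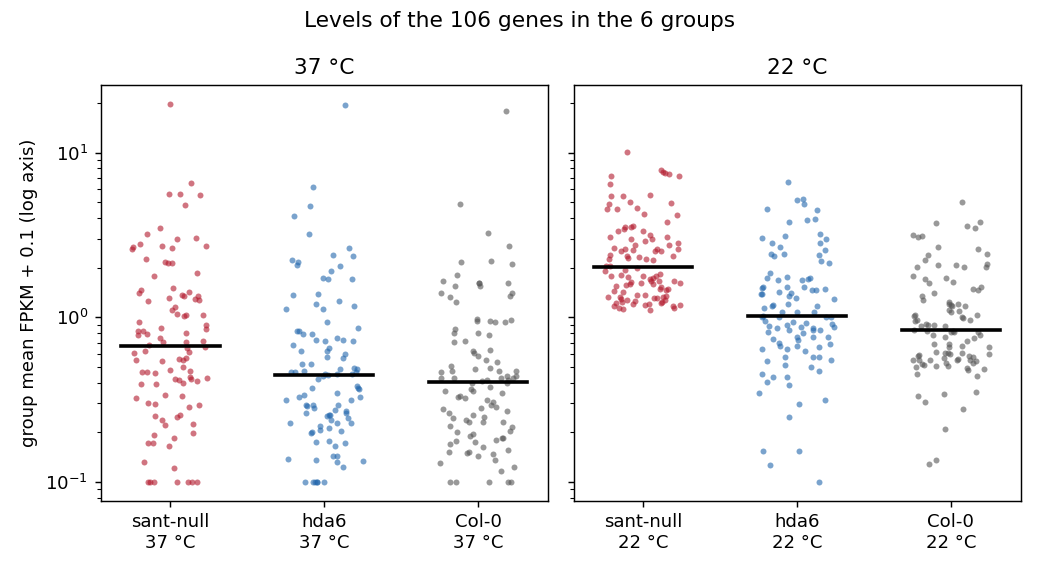
Group mean FPKM plus 0.1 (log axis) of each of the 106 genes at 37 °C (left) and 22 °C (right) in sant-null, hda6 and Col-0, 1 point per gene, with the median as a bar. At 22 °C every gene has an FPKM of at least 1 in sant-null by the choice of genes, and at 37 °C the medians without the added 0.1 were 0.567 in sant-null, 0.346 in hda6 and 0.304 in Col-0.

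The hda6 condition limits the size of the hda6 ratio and does not ask for an absence of change. In the authors' deposited table of hda6 against Col-0 at 22 °C, 11 members were called higher and 0 lower at an adjusted p under 0.05, where 6.1% of all tested genes were called higher and 4.5% lower. The 11 were G6PD4, AT1G29720, GSTF14, ARR11, AT2G21830, MEE29, AT3G05190, AT3G20200, AT3G46370, AT4G16770 and AT5G60760, with log2 fold changes of 0.36 to 0.62 in the authors' deposited table. In sant-null the authors' deposited table at 22 °C called 91 members higher and 0 lower, where 8.82% of all tested genes were higher and 8.98% lower. The difference between sant-null and hda6 at 22 °C, derived from both deposited tables, was called higher for 30 members and lower for 0, where 1.08% and 2% of all genes were. These counts come from the values that chose the genes, so nothing is read from them beyond the label: a rise in sant-null alone was not what the table showed for the 11 genes named, and the set is described by its rule.

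The limits of the rule run through a continuous range of values. Nearest to the 2-fold limit, AT4G09490, AT5G38743 and AT3G46370 were inside at ratios of 2.0006, 2.0009 and 2.0047, and AT2G26515, AT2G17280 and DUF2 were outside at 1.9993, 1.9984 and 1.9976. On the hda6 limit, RABC2b, AT5G60760 and AT5G59660 were inside at 1.4946, 1.4935 and 1.4932, and MYB47, AT1G48390 and AT1G04273 outside at 1.5012, 1.5055 and 1.5056. Of genes that met every other condition, 341 had an FPKM under 1 in sant-null, with AT1G05400, AT4G28790 and AT2G10930 nearest at 0.9996, 0.9958 and 0.9901, against AT1G34160, AT1G20120 and AT2G35343 inside at 1.007, 1.016 and 1.035. The Col-0 limit kept out 2 genes, SAG29, a sugar transporter gene of senescence, at 5.01 in Col-0, and P5CS1, for an enzyme of proline synthesis, at 8.88. The members nearest to that limit were GSTF14 at 4.89, AT2G21830 at 3.70 and AT1G29720 at 3.64 in Col-0.

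In the libraries at 37 °C, which the rule did not use, many members were again higher in sant-null. The authors' deposited table for the mutant and Col-0 at 37 °C called 44 of the 106 members higher and 0 lower, where 4.72% of all tested genes were called higher and 4.05% lower. Another 52 members were tested and not called, 6 were listed without an adjusted p, and 4 were not listed, having an FPKM of 0 in all genotypes at 37 °C. The deposited log2 fold change was above 0 for 86 members and below 0 for 16, with a median of 0.91 over listed members and 0.0074 over all genes tested in the authors' deposited table. Among genes in the members' range of Col-0 level at 22 °C, 4.86% of those tested were called higher. The rise was at least 2-fold in 34 of the 44.

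**Figure D2:**
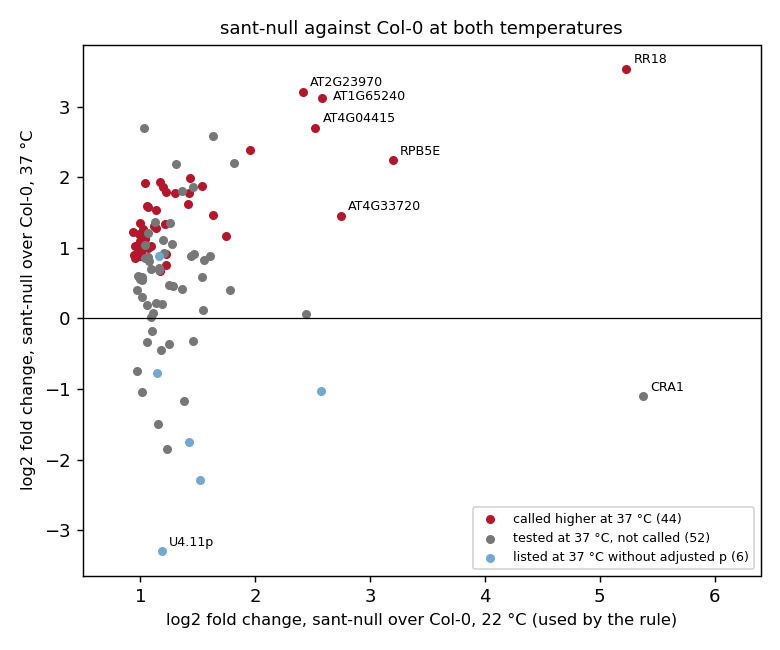
Deposited log2 fold change of sant-null over Col-0 at 37 °C (vertical axis) against that at 22 °C (horizontal axis, used in choosing the genes), 1 point per member listed at 37 °C. Red points are the 44 members called higher at 37 °C, grey the 52 tested and not called, blue the 6 without an adjusted p. RR18 is far above 0 on both axes, and CRA1 lies at -1.11 on the 37 °C axis and 5.38 on the 22 °C axis.

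The counts by role that follow stand beside 44 called of all 106 members, 41.5%, and 4.72% of all tested genes. Roles were grouped after the members' names were seen, and the counts are not read as differences between roles. Among 10 members with roles in transcription and chromatin, 4 rose in sant-null at 37 °C and 0 fell. RR18 had FPKM of 1.2 in sant-null, 0.0651 in hda6 and 0.0963 in Col-0 at 37 °C, and 1.2, 0.0535 and 0.0283 in the same order at 22 °C. It was high in sant-null at both temperatures and close to 0 in the other genotypes. Its log2 fold change at 37 °C was 3.53 ± 0.37 (standard error, 3 libraries a group; adjusted p = 9.57e-19 in the authors' deposited table). A second type-B response regulator gene, ARR11, gave another picture: its FPKM at 37 °C was 0.607 in sant-null, 0.622 in hda6 and 0.747 in Col-0, and its change of -0.34 ± 0.27 was not called (adjusted p = 0.583 in the authors' deposited table). At 22 °C ARR11 had 2.42, 1.58 and 1.09.

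The other 3 called genes of this group were RPB5E, for a homologue of the fifth largest subunit of RNA polymerase II, NF-YB7, for a subunit of the CCAAT-binding factor NF-Y, and SUVR1, for a SET-domain protein of the histone methyltransferase family. RPB5E had FPKM of 0.525 in sant-null, 0.161 in hda6 and 0.103 in Col-0 at 37 °C, and its change was 2.24 ± 0.71 (adjusted p = 0.0243 in the authors' deposited table). NF-YB7 had 0.546 in sant-null, 0.283 in hda6 and 0.146 in Col-0, with 1.86 ± 0.52 (adjusted p = 0.00719 in the authors' deposited table). SUVR1 had 0.680 in sant-null, 0.420 in hda6 and 0.301 in Col-0, with 1.12 ± 0.27 (adjusted p = 0.000742 in the authors' deposited table). In all 3 genes the FPKM of hda6 lay between the other genotypes. At 37 °C hda6 was called different from neither Col-0 nor sant-null in these genes. RPB5E overlaps AT3G54500 on the opposite strand, which had FPKM of 32.7 in sant-null and 38.0 in Col-0 at 37 °C; whether counting used strand is not stated, and the part of its reads was not tested. The MYB factor gene MYB10, the MADS-box gene AGL102, the AT-hook gene AT1G14490, the RWP-RK gene AT4G38340 and the agenet-domain gene AT5G23800 were tested and not called, at 1.80 ± 0.67, 0.40 ± 0.76, -0.44 ± 0.65, 0.91 ± 0.61 and 1.11 ± 0.62 in the authors' deposited table.

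Of 5 members of seed storage and desiccation tolerance, 2 rose in sant-null at 37 °C and 0 fell. CRA1, a 12S seed storage globulin gene, had FPKM at 37 °C of 0.0845 in sant-null, 0.0368 in hda6 and 0.178 in Col-0, and at 22 °C of 1.67, 0.0262 and 0.0361 in the same order. Its level was well above 0 in sant-null at 22 °C and in no other group. At 37 °C its change in sant-null was -1.11 ± 0.68 (adjusted p = 0.414 in the authors' deposited table). The late embryogenesis abundant genes AT3G15670 and LEA18, whose proteins protect drying cells, were not called at 37 °C, at 0.056 ± 0.46 and -0.32 ± 0.66 in the authors' deposited table. AT3G15670 had 0.516 in sant-null, 0.365 in hda6 and 0.480 in Col-0 at 37 °C and 1.37, 0.213 and 0.239 at 22 °C, so its groups lay close together in heat and apart without it.

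RD20 and RAB18, both induced by abscisic acid and drought, were the called genes. RD20, for a caleosin, had FPKM at 37 °C of 2.67 in sant-null, 1.29 in hda6 and 0.834 in Col-0, with a change of 1.62 ± 0.26 (adjusted p = 7.68e-08 in the authors' deposited table). RAB18, for a dehydrin, had 2.55 in sant-null, 2.13 in hda6 and 1.56 in Col-0, with 0.67 ± 0.22 (adjusted p = 0.0302 in the authors' deposited table). RAB18 overlaps PLP3b on the opposite strand, which had 4.79 in sant-null and 4.33 in Col-0 at 37 °C.

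Of 9 protein kinase members, 6 rose in sant-null at 37 °C and 0 fell, beside 44 of all 106 members that rose. AT1G11300, for a G-type lectin receptor-like kinase, had FPKM of 1.00 in sant-null, 0.382 in hda6 and 0.278 in Col-0, with 1.79 ± 0.26 (adjusted p = 4.6e-10 in the authors' deposited table). AT1G29720, for a leucine-rich repeat transmembrane kinase, had 2.48 in sant-null, 1.63 in hda6 and 1.13 in Col-0, with 1.09 ± 0.13 (adjusted p = 7.7e-14 in the authors' deposited table). For both genes the FPKM of hda6 lay between the other genotypes. For AT1G11300 hda6 over Col-0 was not called, and for AT1G29720 sant-null over hda6 was not called. AT1G78940, AT5G53320, AT3G20200 and AT3G46370 rose by 1.94, 1.92, 1.27 and 0.86 on the log2 scale in the authors' deposited table, each with an FPKM under 1 at 37 °C in all genotypes. AT3G20200 overlaps PRK4, a pollen receptor kinase gene that is no member, on the same strand. PRK4 had 1.59 in sant-null, 0.596 in hda6 and 0.0772 in Col-0 at 37 °C and 0.808, 0.310 and 0.0425 at 22 °C, and the part of its reads in the AT3G20200 values was not tested. CES101, AT5G59660 and AT1G70430 were not called, at 0.023 ± 0.29, 0.89 ± 0.43 and 1.04 ± 0.37 in the authors' deposited table.

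Defence and secreted proteins rose in 4 of 5 members at 37 °C, beside 44 of all 106 members. MLO7 was placed here by its seven-transmembrane family alone, in which some members set mildew susceptibility. Whether MLO7 itself acts in defence was not tested. MLO7 had FPKM of 0.577 in sant-null, 0.236 in hda6 and 0.204 in Col-0, with 1.46 ± 0.40 (adjusted p = 0.00592 in the authors' deposited table). AT4G33720, of the family of pathogenesis-related protein 1, had 1.24 in sant-null, 0.228 in hda6 and 0.431 in Col-0, with 1.46 ± 0.43 (adjusted p = 0.0112 in the authors' deposited table). In this gene hda6 had the lowest FPKM at both temperatures, and its difference from Col-0 was called at neither. AT3G57160, a cysteine-rich transmembrane module gene, had 5.53 in sant-null, 3.11 in hda6 and 2.10 in Col-0, with 1.34 ± 0.27 (adjusted p = 2.56e-05 in the authors' deposited table). ESP, whose protein directs glucosinolate breakdown towards nitriles, had 2.88 in sant-null, 2.29 in hda6 and 1.52 in Col-0, with 0.89 ± 0.16 (adjusted p = 9.16e-07 in the authors' deposited table). The defensin-like gene AT1G13609 was not called, at 1.37 ± 0.60 in the authors' deposited table.

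Of 5 members for proteases and related proteins, 3 rose and 0 fell, beside 44 of all 106 members that rose. AT2G23970 had FPKM at 37 °C of 1.27 in sant-null, 0.190 in hda6 and 0.137 in Col-0, with 3.21 ± 0.53 (adjusted p = 1.37e-07 in the authors' deposited table). AT1G65240 had 0.509 in sant-null, 0.107 in hda6 and 0.0559 in Col-0, with 3.12 ± 0.56 (adjusted p = 1.61e-06 in the authors' deposited table). In both, the FPKM of sant-null was the highest and that of hda6 lay nearer to Col-0, as at 22 °C. These are group means without a spread. At 37 °C neither sant-null over hda6 nor hda6 over Col-0 was called in these genes. AT1G65240 overlaps AT1G65230 on the opposite strand, at 24.1 in sant-null and 23.2 in Col-0 at 37 °C. AT1G62290, a saposin-like aspartyl protease gene, was among the best expressed members at 37 °C, with 6.44 in sant-null, 4.01 in hda6 and 3.15 in Col-0, and its change was 0.99 ± 0.10 (adjusted p = 1.28e-20 in the authors' deposited table). The rhomboid protease gene AT5G25640 and CYS2, for a cystatin that inhibits cysteine proteases, were not called, at 0.86 ± 0.44 and -0.18 ± 0.60 in the authors' deposited table.

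Vesicle traffic, organelle import and photosystem members rose in 4 of 6 cases, beside 44 of all 106 members. SARA1A, for a small GTPase of COPII vesicle formation, had FPKM at 37 °C of 1.36 in sant-null, 0.581 in hda6 and 0.369 in Col-0, with 1.87 ± 0.43 (adjusted p = 0.000425 in the authors' deposited table). TIM17-1, for a subunit of the protein import channel of the inner mitochondrial membrane, had 4.73 in sant-null, 2.52 in hda6 and 2.07 in Col-0 at 37 °C and 1.64, 0.706 and 0.452 at 22 °C. The order of the genotypes was the same at both temperatures while the level was higher in heat. Its change in sant-null at 37 °C was 1.16 ± 0.21 (adjusted p = 3.01e-06 in the authors' deposited table). PSBP-2, a photosystem II subunit P gene with a close paralogue that could split its reads, was at 1.53 ± 0.30, and AT1G68110, of the ENTH family of clathrin adaptors, at 1.3 ± 0.38 in the authors' deposited table. RABC2b and AT4G02482 were not called, at 0.59 ± 0.39 and 1.05 ± 0.77 in the authors' deposited table.

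Metabolic enzymes were the most numerous role, with 21 members, of which 10 rose and 0 fell at 37 °C, beside 44 of all 106 members. G6PD4, named as a glucose-6-phosphate dehydrogenase, had FPKM of 2.60 in sant-null, 1.60 in hda6 and 0.850 in Col-0, with 1.58 ± 0.18 (adjusted p = 2.92e-16 in the authors' deposited table). GSTF14, a phi-class glutathione transferase gene, had 5.42 in sant-null, 4.65 in hda6 and 2.59 in Col-0, with 1.03 ± 0.15 (adjusted p = 2.11e-09 in the authors' deposited table). In both genes the FPKM of hda6 lay between the other genotypes. At 37 °C hda6 was called higher than Col-0 in both, and sant-null over hda6 was called in neither. AT2G32160, a methyltransferase family gene, had 1.17 in sant-null, 0.362 in hda6 and 0.327 in Col-0, so hda6 was close to Col-0, and its change was 1.78 ± 0.30 (adjusted p = 1.79e-07 in the authors' deposited table). The aminotransferase-like gene AT3G05190 was at 1.59 ± 0.27, the hydrolase family gene AT5G47330 at 1.98 ± 0.57, and ACC2, for a plastid acetyl-CoA carboxylase of fatty acid synthesis, at 1.27 ± 0.26 in the authors' deposited table. The remaining 4 called genes, AT2G29170, AT3G14360, AT4G16770 and AT3G55290, lay between 0.95 and 1.22 in the authors' deposited table. GDPD6, a glycerophosphodiester phosphodiesterase gene with FPKM of 7.35 in sant-null at 22 °C, was not called at 37 °C, at 0.71 ± 0.28 in the authors' deposited table.

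**Figure D3:**
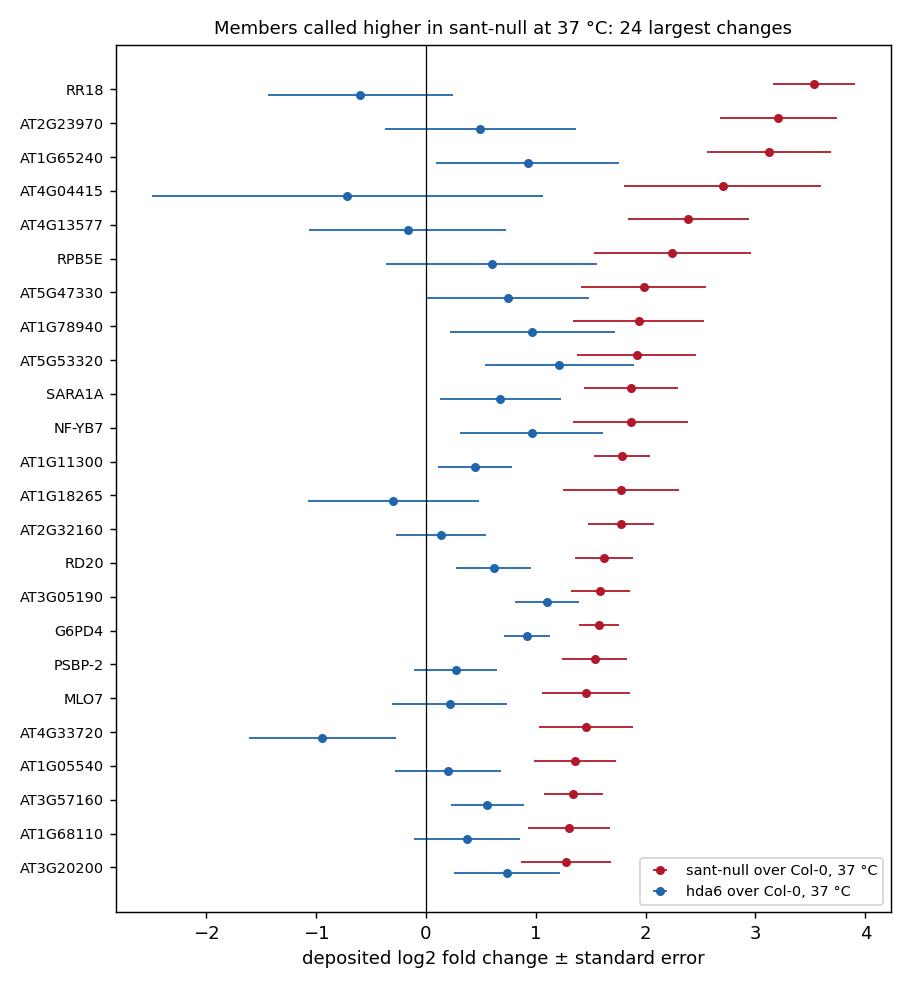
Deposited log2 fold change with its standard error at 37 °C for the 24 called members with the largest rise in sant-null, for sant-null over Col-0 (red) and hda6 over Col-0 (blue), 3 libraries a group. Red points run from 1.27 to 3.53, and each blue point lies left of its red point. Both comparisons use the same Col-0 libraries.

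Of 7 members for RNA-binding proteins, helicases and organelle RNA editing, 3 rose. They were the helicase gene MEE29 at 0.91 ± 0.29, the nucleotidyltransferase gene AT2G40520 at 0.90 ± 0.16 and CID9, for a protein that binds the C-terminal domain of poly(A)-binding protein, at 0.75 ± 0.23 in the authors' deposited table. Neither of 2 F-box members was called, AT5G38565 at 2.18 ± 0.92 and AT5G18780 at 0.55 ± 0.41 in the authors' deposited table.

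Among 18 members for proteins of other or unknown function, 7 rose and 0 fell. AT4G04415 had FPKM at 37 °C of 0.792 in sant-null, 0.0713 in hda6 and 0.117 in Col-0, with 2.70 ± 0.90 (adjusted p = 0.0343 in the authors' deposited table). It was the 1 called member whose mean normalised count, the deposited baseMean, was under 10. AT4G13577 had 0.721 in sant-null, 0.118 in hda6 and 0.131 in Col-0, with 2.39 ± 0.55 (adjusted p = 0.000481 in the authors' deposited table). In both, hda6 and Col-0 were alike and near 0.1. AT1G18265 of the DUF593 family was at 1.78 ± 0.53, the DUF295 genes AT1G05540 and AT5G03390 at 1.36 ± 0.38 and 1.24 ± 0.24, AT2G38430 at 1.00 ± 0.29, and the C1-domain gene AT2G21830 at 0.90 ± 0.15 in the authors' deposited table. AT5G66740, among the 10 highest members in sant-null at 22 °C, was not called, at 0.31 ± 0.17 in the authors' deposited table.

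Noncoding RNA genes made up 18 members, 17% against 15.7% of all genes. Small nucleolar RNA genes were 4.72% of members against 0.882% of all genes, and long noncoding RNA genes 5.66% against 10.7%. At 37 °C 1 of the 18 rose, 8 were tested and not called, and 9 had no adjusted p. The gene that rose was AT4G12917, an RNA of unknown function, with FPKM of 3.38 in sant-null, 2.07 in hda6 and 1.45 in Col-0. Its change was 1.19 ± 0.33 (adjusted p = 0.00558 in the authors' deposited table). The 18 also held 5 small nucleolar RNAs, the precursors of miR833a and miR171a, a U4 RNA and a proline tRNA. Of 15 members not called in sant-null at 22 °C by the authors' deposited table, 12 were noncoding. The 4 members at 0 in every genotype at 37 °C were noncoding as well, namely the tRNA gene AT1G28930, the small nucleolar RNA gene AT1G75163, MIR171a and the long noncoding RNA gene AT4G07170. The highest member at 37 °C was the small nucleolar RNA gene AT5G00760, with 19.7 in sant-null, 19.3 in hda6 and 17.7 in Col-0, and its groups lay close together. It lies on the same strand as the overlapping AT5G01350, which had FPKM of 49.0 in sant-null and 44.1 in Col-0 at 37 °C.

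Read depth differs widely among the members. In the member of median exon length, 1158 bases, 1 read in 1 of 3 libraries adds 0.00675 to a group mean FPKM. The deposited baseMean of the members had a median of 73.9 at 22 °C and 28.5 at 37 °C. It was under 10 or not listed for 27 members at 37 °C, of which 1 was called, and 43 of the other 79 were called.

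In hda6 at 37 °C the share of members called higher was near that of all genes, so the count is not read as a result about the members. The rule limited the hda6 ratio at 22 °C, and how far this holds the share down was not tested. The authors' deposited table called 7 members higher and 1 lower of 90 tested, where 9.06% of all tested genes were higher and 9.41% lower. Over all 106 members, tested or not, the share called higher was 6.6%. Among genes in the members' range of Col-0 level at 22 °C, 4.56% of those tested were called higher in hda6. With 1 in place of 0.1 added in the rule, 18 of 55 members were called higher. Another 82 members were tested and not called, 12 had no adjusted p and 4 were not listed. The 7 were AT3G05190 at 1.1 ± 0.29, G6PD4 at 0.92 ± 0.21, GSTF14 at 0.85 ± 0.16, ESP at 0.60 ± 0.18, the oxygenase family gene AT4G16770 at 0.56 ± 0.18, AT1G29720 at 0.53 ± 0.16 and AT1G62290 at 0.35 ± 0.12 in the authors' deposited table. All 7 were also called in sant-null, and the comparisons share their Col-0 libraries. CRA1 was the gene called lower, at -2.23 ± 0.85 (adjusted p = 0.0486 in the authors' deposited table), on FPKM under 0.2 in both groups. The log2 fold change in hda6 was above 0 for 67 members and below 0 for 35. The median change of the members in hda6 was 0.29, and that of all genes tested was 0.01, in the authors' deposited table.

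Set directly against hda6 at 37 °C, 4 members were higher in sant-null and 0 lower, where 2.44% of all tested genes were called higher and 2.03% lower, and 85 members were tested and not called. The 4 were 3.77% of all 106 members, tested or not, and 89 members were tested. Of the tested genes in their range of Col-0 level, 1.91% were called higher. With 1 added in the rule, 8 of 55 members were. This difference was derived from deposited values with an error that is an upper bound. RR18 was at 4.13 ± 0.92 (adjusted p = 0.000413, Wald test with Benjamini-Hochberg adjustment), AT1G62290 at 0.64 ± 0.15 (adjusted p = 0.00144), AT2G32160 at 1.64 ± 0.51 (adjusted p = 0.0303) and AT1G11300 at 1.34 ± 0.42 (adjusted p = 0.0388). AT4G33720 and AT2G23970, with a wide gap between FPKM of the mutants, were at 2.40 ± 0.80 and 2.71 ± 1.02 (adjusted p = 0.0552 and 0.122). The derived difference was above 0 for 86 members and below 0 for 16, with a median of 0.65 over members and 0.016 over all genes tested, and 23 members had an unadjusted p under 0.05. By FPKM, 82 members were higher in sant-null than in both other genotypes at 37 °C.

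**Figure D4:**
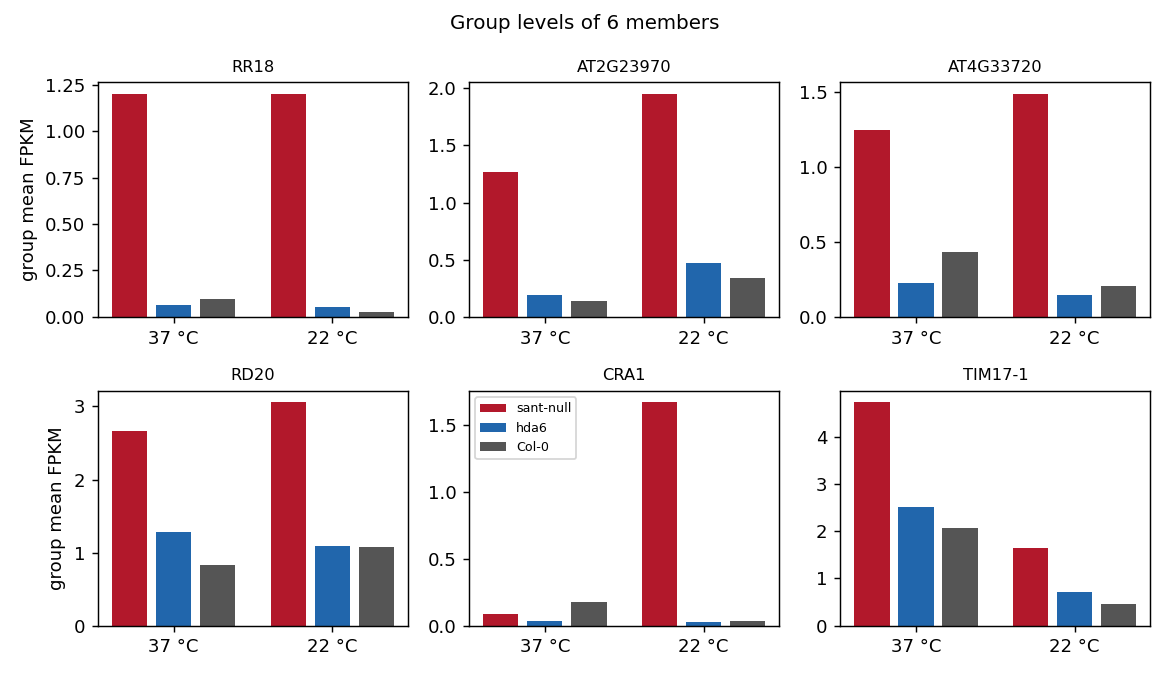
Group mean FPKM of 6 members at 37 °C (left bars) and 22 °C (right bars) in sant-null (red), hda6 (blue) and Col-0 (grey), without error bars because the table holds 1 value per group. RR18 is at 1.2 in sant-null at both temperatures, CRA1 is above 1 in sant-null at 22 °C and in no other group, and TIM17-1 is higher at 37 °C than at 22 °C in every genotype.

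In heat, most members had a lower FPKM. It was lower at 37 °C than at 22 °C for 101 members in sant-null, 91 in hda6 and 95 in Col-0. The median ratio of 37 °C to 22 °C was 0.329 in sant-null, 0.422 in hda6 and 0.456 in Col-0, beside 0.450, 0.454 and 0.493 over the 14149 genes in the same range of Col-0 level. Each ratio holds a group at 22 °C that chose the members, as do the deposited heat changes, so both are a description and nothing is read from the calls. FPKM ratios for heat in Col-0 lay 1.01 below the deposited log2 fold changes in the median, so a fall on the FPKM scale is in part common to all genes. On the deposited scale the members had a median of -0.34 and all genes tested of -0.089, and 15 members were called higher and 26 lower with heat in Col-0, where the authors' deposited table called 30.1% and 29.9% of all tested genes.

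The member with the largest rise with heat in Col-0 was AT5G00760, at 4.98 ± 0.51, followed by CRA1 at 3.25 ± 0.76, TIM17-1 at 3.17 ± 0.35 and RR18 at 2.76 ± 0.93 in the authors' deposited table. For CRA1 and RR18 these rest on FPKM under 0.2 in Col-0 at both temperatures. Among the members called lower, the F-box gene AT5G38565 had the lowest value, at -2.66 ± 0.78 in the authors' deposited table. By FPKM, 5 members were higher at 37 °C in all genotypes: AT1G07897, TIM17-1, AT1G62290, AT5G00760 and RR18, the last by a margin that was small in sant-null (1.203 at 37 °C and 1.2004 at 22 °C).

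Among 82 genes in 10 lists of related pathways and other tissues, 2 were members, CRA1 in the seed maturation list and RAB18 in the list of cold and abscisic acid response. Of 17 seed maturation genes, 0 were called in sant-null at 37 °C, with 7 tested, and in hda6 CRA1 alone was called. At 22 °C, where CRA1 was selected, 4 were higher in sant-null: CRA1, the 12S globulin gene CRC at 6.11 ± 1.39, the oleosin gene OLEO2 at 2.97 ± 0.90 and the peroxiredoxin gene PER1 at 3.00 ± 0.69 in the authors' deposited table. The summed FPKM of the list was 0.582 in sant-null, 0.474 in hda6 and 0.627 in Col-0 at 37 °C, and 4.09, 1.25 and 1.03 at 22 °C. The sums at 22 °C include CRA1, selected by its level there, at 1.67, 0.0262 and 0.0361 in the same order. They also include DOG1 at 0.801, 0.762 and 0.685, so the sums are not read as a rise of the list. The 2S albumin genes SESA1 and SESA3 were at 0 in all groups. Whether seed tissue has a part in the CRA1 level was not tested.

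Of 12 cold and abscisic acid genes, 3 were higher and 1 lower in sant-null at 37 °C. The cold-regulated genes COR15A and COR15B were at 3.01 ± 0.43 and 4.54 ± 1.21, and RD29A, a drought and cold response gene, at -0.77 ± 0.14 in the authors' deposited table. In hda6 at 37 °C 2 of the 12 were called higher and 4 lower, and RAB18 was not called. The 2 were again COR15A and COR15B, at 2.14 ± 0.50 and 3.62 ± 1.37 in the authors' deposited table, and RD29A was among the 4. Outside the rule, COR15A had FPKM of 2.01 in sant-null, 0.842 in hda6 and 0.356 in Col-0 at 22 °C, so that its hda6 ratio was over the limit, and COR15B had 0.491, 0.0391 and 0.0569, below the limit of 1 in sant-null.

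The listed markers of other tissues held no other member. At 22 °C the 6 embryo sac and egg cell genes summed to 1.01 FPKM in sant-null, 1.31 in hda6 and 1.102 in Col-0, with 3, 3 and 4 genes at 0. Most of each sum was EC1.4, at 0.793, 1.23 and 1.09. The 8 pollen and sperm genes summed to 2.14, 1.69 and 1.47, with 5 genes at 0 in each, and GCS1, for a sperm fusion protein, was the 1 gene called in sant-null. The 7 floral organ genes summed to 2.89, 2.76 and 3.57, of which SEP3 alone made 2.17, 2.21 and 3.16. The 5 root hair genes, expected in whole seedlings, summed to 29.3, 35.2 and 23.7 with none at 0, and 4 of them were called higher in hda6 at 22 °C by the authors' deposited table.

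FLC and its relatives, 6 MADS-box repressors of flowering, held no member; at 37 °C the authors' deposited tables called 3 higher in sant-null and 3 in hda6. Of 12 histone deacetylase genes, HDA18 was the 1 called in sant-null at 37 °C, at 3.15 ± 0.45 in the authors' deposited table. In hda6 2 were higher, among them HDA18 at 1.92 ± 0.58, and 2 were lower. The 5 shoot meristem genes gave 0 calls in either mutant at 37 °C. Of 4 loci silenced by DNA methylation, 0 were called in sant-null and 1 was higher in hda6.

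By words in the annotated product, protein kinases formed 8.49% of the members and 4.26% of all genes. No member was a B3 factor, a cytochrome P450, a peroxidase, a transporter or an immune receptor by these words. Chromosome 1 carried 34.9% of the members and 26.6% of all genes, and chromosome 3 carried 14.2% and 19.8%. These shares are given without a test. Another annotated gene overlapped 36 members, of which 10 were called in sant-null at 37 °C, and of the 70 that overlapped none 34 were called.

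Some members were neighbours. On chromosome 1 the long noncoding RNA gene AT1G04313, the uncharacterized gene AT1G05035 and the long noncoding RNA gene AT1G04323 follow each other. At 22 °C AT1G04313 had FPKM of 1.43 in sant-null, 0.306 in hda6 and 0.234 in Col-0, AT1G05035 had 2.2, 0.543 and 0.725, and AT1G04323 had 1.82, 0.372 and 0.559 in the same order. At 37 °C no group of the 3 genes was above 0.126. AT1G04313 and AT1G05035 overlap on opposite strands, so reads of one may be counted for the other. The other adjacent pairs were MEE29 with the uncharacterized gene AT2G35343, and AT5G05420, an FKBP-like isomerase gene, with the RNA-binding protein gene AT5G05430. AT5G05420 overlaps DREB2A, a heat-induced transcription factor gene, on the opposite strand, which had 92.2 in sant-null, 84.5 in hda6 and 88.1 in Col-0 at 37 °C.

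Motifs were counted on both strands in the 250 bases before the start of 88 protein-coding members and 27443 protein-coding genes. No motif contains another. The telo-box AAACCCTA, bound by telomere repeat binding factors, was in 2.27% of the members' windows and 4.49% of all windows. The G-box CACGTG, bound by bZIP and bHLH factors, was in 9.09% and 6.49%, among them RD20, LEA18 and SARA1A. The heat shock element core GAANNTTC was in 7.95% and 9.55%, and the RY element CATGCATG, bound by B3 factors of seed maturation, in 1.14% and 0.776%. Other letter orders of the heat shock element were not counted. The window of CRA1 did not hold the RY letters.

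A further 249 genes met the same conditions in sant-null but had an hda6 ratio of 1.5 or more. The authors' deposited tables called 65.9% of these higher in sant-null at 37 °C, beside 41.5% of the members, and 43.8% higher in hda6, beside 6.6%. Their median change in sant-null at 37 °C was 1.71, beside 0.91 for the members, in the authors' deposited table. With the places of sant-null and hda6 exchanged, the rule found 126 genes, of which the authors' deposited tables called 0 higher and 3 lower in sant-null and 100 higher in hda6 at 37 °C. The differences between these sets were not tested.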

How the data were processed

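DESeq2 (1.30.1), featureCounts (2.0.1), HISAT2 (2.2.1), CASAVA and the build TAIR10 are named in the submitters' processing notes, without settings, strand or the handling of multi-mapping reads. The authors deposited FPKM as 1 mean per group, so it carries no SD. They also deposited comparison tables with baseMean (a signal averaged over libraries), a log2 fold change with its standard error, a Wald score, a p-value and an adjusted p. All 32548 genes matched the RefSeq annotation of TAIR10.1 by identifier, which gave names, products and windows before gene starts; the deposited files give no coordinates.

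Calls use the deposited adjusted p under 0.05. sant-null over hda6 subtracts deposited log2 fold changes that share Col-0 libraries. Squared errors were summed, an upper bound, with a Wald test and Benjamini-Hochberg adjustment over genes tested in both. A check on simulated data planted large changes only, in genes of higher baseMean, with noise drawn from the deposited standard errors. It therefore does not cover members of low baseMean or small differences. Python 3.11.15, pandas 2.3.3, numpy 2.4.6 and scipy 1.17.1 were used. The members and lists were chosen with earlier results of these data known, and the role groups after the members' names were seen. Named genes were members with the 10 highest ratios, levels or called changes at 37 °C, those called in hda6, list genes, neighbours and genes at the limits; further examples in each role were chosen after their values were seen. Library totals were recovered from genes with a single read. Alternatives were a stricter threshold, adjustment over every gene, a minimum fold, the FPKM scale and other limits in the rule.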

Additional observations from a re-analysis of the deposited data

How the results depend on the processing

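The number of members, 106, moved to 55 with 1 added to each value, to 15 with a 3-fold minimum and to 37 with an hda6 ratio under 1.2; without the Col-0 limit it was 108. Members called higher in sant-null over Col-0 at 37 °C, 44, numbered 31 to 47 at an adjusted p under 0.01, with adjustment over every gene, at 2-fold or more, on the FPKM scale, with 1 added, without the Col-0 limit, and in 2 sets chosen after seeing the data (members overlapping no other gene, 34 of 70; members called in sant-null and not in hda6 at 22 °C, 35 of 80). With fewer members entering, they were 9 of 15 with the 3-fold minimum and 11 of 37 with the stricter hda6 limit. For hda6 over Col-0, 7 in the report, the count was 1 at 2-fold or more, 18 of 55 with 1 added, 0 of 15 with the 3-fold minimum, 0 of 37 with the stricter hda6 limit and 2 of 80 in the set not called in hda6 at 22 °C. The lower call of CRA1 was lost at an adjusted p under 0.01 and with adjustment over every gene. For sant-null over hda6, 4 in the report, it was 2 at an adjusted p under 0.01, 8 of 55 with 1 added, 1 of 15 with the 3-fold minimum and 2 of 37 with the stricter hda6 limit. Of these settings, the FPKM scale alone could change a direction, since the others leave the deposited log2 fold changes as they are. It shifted sant-null over Col-0 at 37 °C by 0.043 in the median and reversed no called member. No paired analysis was possible because the files hold 1 value per group, and leaving out each library was not run for the same reason. Depth limits the 27 members whose baseMean at 37 °C was under 10 or not listed.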

Other observations

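Genes beside the members or just outside the rule gave further values, and they were chosen after their values were seen. PRK4, which overlaps the member AT3G20200, was at 4.26 ± 0.34 in sant-null and 2.90 ± 0.41 in hda6 over Col-0 at 37 °C (adjusted p = 1.47e-32 and 1.06e-10 in the authors' deposited tables), so it was called higher in both mutants. P5CS1 and SAG29, which the Col-0 limit alone kept out, were called higher in sant-null at 37 °C, at 0.84 ± 0.08 and 0.60 ± 0.13 (adjusted p = 1.17e-23 and 0.000121 in the authors' deposited table). In hda6 at 37 °C P5CS1 was not called, at 0.15 ± 0.087, and SAG29 was lower, at -0.78 ± 0.16 (adjusted p = 0.234 and 2.98e-05 in the authors' deposited table).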
